A study of Mus musculus with 14 samples.

Results

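In mouse astrocytes, 10 chemokine genes are described: the CC chemokines Ccl2, Ccl3, Ccl4, Ccl5 and Ccl7, the CXC chemokines Cxcl1, Cxcl2, Cxcl10 and Cxcl12, and the CX3C chemokine Cx3cl1. They were found by gene symbol in the annotation of the array's probes, which gave 11 probes for the 10 genes, Cx3cl1 having probes 1305 and 30733, out of 33600 probes in all (18179 of them with 1 gene symbol, for 13661 named genes). The groups were astrocytes that lack connexin43 (Cx43_null, 4 samples), wild-type astrocytes transfected with a small interfering RNA (siRNA) against connexin43 (Cx43_siRNA, 4 samples) and untreated wild-type astrocytes (wild_type, 6 samples, of which replicates 3, 4 and 6 were used). All cells came from brains of newborn mice, each pup cultured on its own; titles call the cells cortical, while the protocol speaks of whole brain. The cultures were passaged after about a week. The siRNA group received 20 ug of construct at confluence, for 36 h according to the design text, with protein checked at 48 h. No strain, knockout allele or siRNA sequence is given in the labels, and no sample received a control siRNA or the transfection alone, so effects of the siRNA's target and of transfection cannot be told apart.

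Chemokines are small secreted proteins that draw leukocytes along a gradient by binding G protein-coupled receptors. Cultured astrocytes and microglia both make them after exposure to cytokines, interferons, bacterial products or double-stranded RNA, mainly through the transcription factors of the NF-kB and interferon regulatory factor families. Cxcl12 and Cx3cl1 are better known as constitutive chemokines of the brain. Connexin43, encoded by Gja1, forms the main gap junction channels of astrocytes.

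Ccl7, Cxcl10, Ccl5 and Ccl2 were higher in siRNA-treated than in wild-type astrocytes by 14.7- to 76.5-fold, and Cx3cl1 was higher at 1 of its probes by 4.81-fold. The same 5 probes were lower in null than in siRNA-treated astrocytes, by 3.91- to 60.6-fold. Between null and wild-type astrocytes 0 of the 8 chemokine probes tested passed the test's threshold, as did 0.589% of all probes. Ccl3, Cxcl1 and Cxcl2 could not be tested in that comparison. Cxcl1 and Cxcl2 had a value in every siRNA sample but in few of the others, and were high in all 4 siRNA samples.

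Each value is the authors' log2 value of a probe in a sample, relative to the sample's median of 0, so levels of different probes are not compared. The 11 samples used had values for 17849 to 26826 probes (53.1% to 79.8%), and the reason for a missing value is unknown. Values of wild-type replicates 1 and 2 as deposited correlated with the mean of the used samples at only 0.37 and 0.38, and at 0.858 and 0.875 once block columns of the print grid were moved, mostly by 1 row. Wild-type replicate 5 correlated at -0.02 and had an SD of 0.476, so these 3 samples were left out; results with replicates 1 and 2 moved are given where they bear on a chemokine, and that move favours likeness to the other samples. Replicates 1 and 2 also stood apart from 3 and 4 within the null group (r = 0.753 between replicates 1 and 3, against 0.991 between 1 and 2) and within the siRNA group (0.770 against 0.988), and wild type has used samples only in the set numbered 3 and above. The comparisons therefore come from 1 model with group, dye and replicate set, tested with limma across all probes. "Called" means a Benjamini-Hochberg adjusted p under 0.05, two-sided, over all tested probes. How many of all probes have groups that do not overlap was not counted. Statements that groups overlap or lie apart therefore only describe the values. The labels do not say which culture a sample came from; the p-values reflect differences among samples only, and these can be technical. A bulk sample cannot tell apart fewer cells of a type and less RNA per cell.

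Gja1, the targeted gene, was measured at -1.17, -1.06, 2.82 and 3.03 in null replicates 1 to 4, at 1.93, 2.14, 5.47 and 5.70 in siRNA replicates 1 to 4, and at 6.08, 7.53 and 4.82 in wild-type replicates 3, 4 and 6. All null samples were below all wild-type samples, while siRNA replicates 3 and 4 lay inside the wild-type range. The fitted change was -3.31 ± 0.58 (SE) on the log2 scale for null minus wild type (limma adjusted p = 0.04), -0.41 ± 0.58 for siRNA minus wild type (adjusted p = 0.732) and -2.90 ± 0.48 for null minus siRNA (adjusted p = 0.00709). A lower Gja1 transcript level in the samples labelled Cx43_siRNA was therefore not shown by this probe, although the design text reports a reduced mRNA level; without the set term the change was -2.31 (adjusted p = 0.587). Whether the probe lies in the part deleted in the null mice is not known here. Both null calls were lost when consecutive samples of opposite dye, which may share an array, were treated as a random block (adjusted p = 0.298 against wild type and 0.0636 against siRNA).

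**Figure D1:**
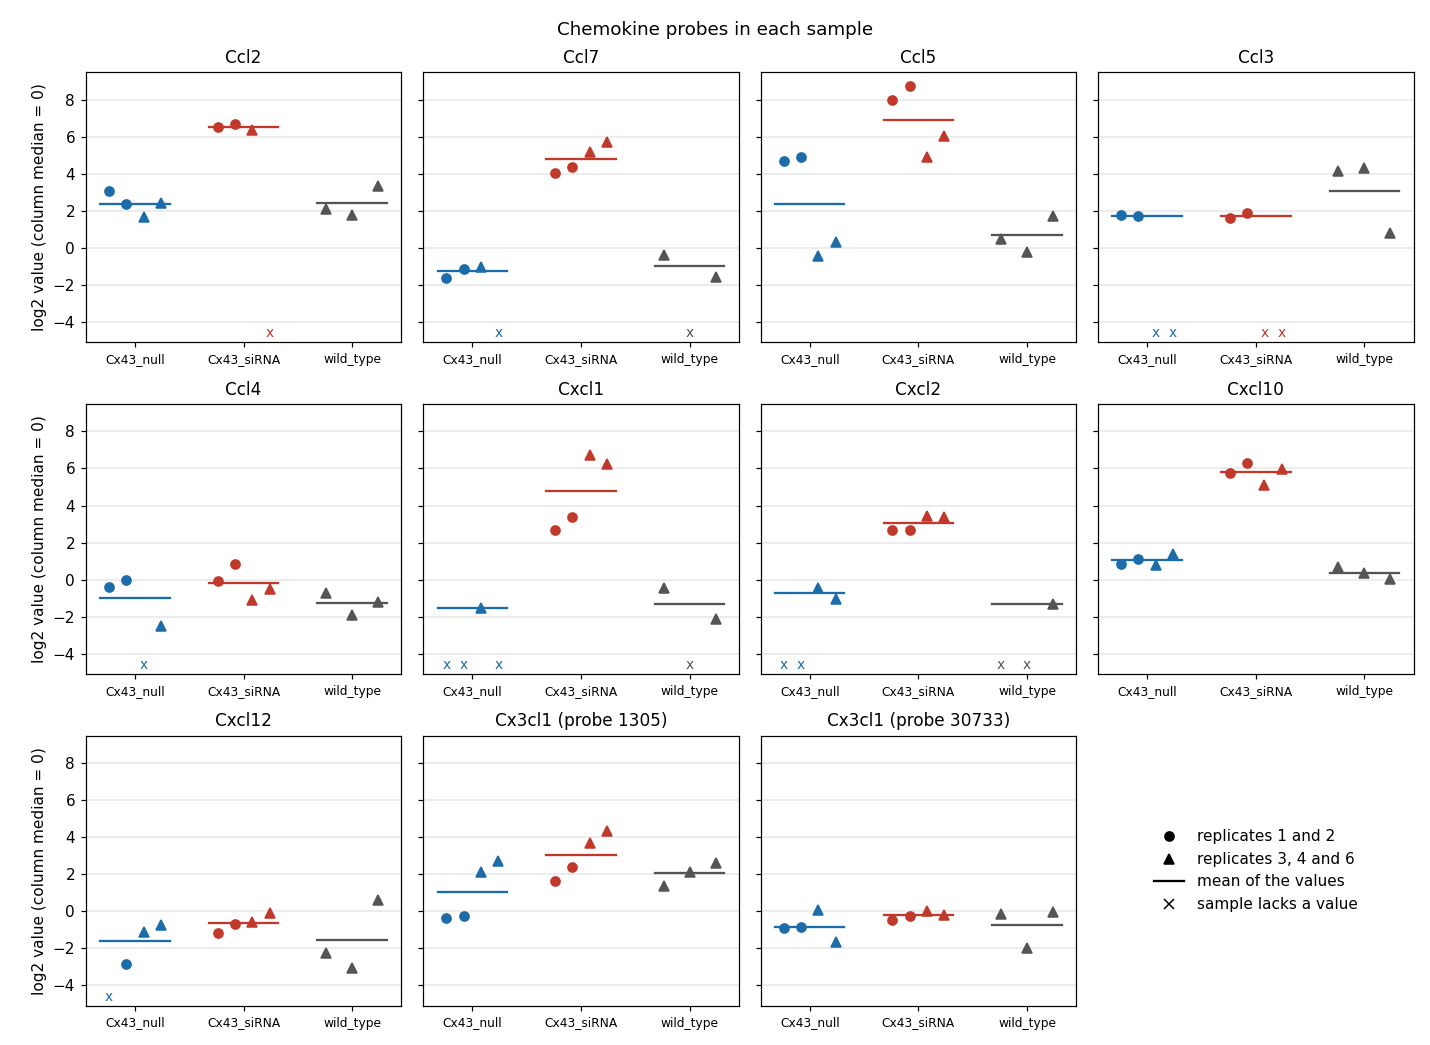
Log2 value (column median = 0) of each chemokine probe in each sample, by group; circles are replicates 1 and 2, triangles are replicates 3, 4 and 6, lines are group means, and a cross at the foot marks a sample without a value. The siRNA samples sit above all others at Ccl2, Ccl7, Cxcl1, Cxcl2 and Cxcl10, and at Ccl5 the null replicates 1 and 2 reach 4.69 and 4.90.

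Ccl2, which draws monocytes through the receptor Ccr2, had 3.05, 2.37, 1.68 and 2.44 in null samples, 6.51, 6.71 and 6.36 in siRNA replicates 1 to 3, and 2.08, 1.78 and 3.34 in wild-type samples. SiRNA replicate 4 lacked a value. The siRNA samples lay above every other sample, and the null and wild-type ranges overlapped. The means were 2.38 ± 0.56 in null (SD, n = 4), 6.53 ± 0.17 in siRNA (n = 3) and 2.40 ± 0.83 in wild-type samples (n = 3). Against wild type, siRNA samples were higher by 3.88 ± 0.59 (SE; 14.7-fold, limma adjusted p = 0.0046), a call that was lost without siRNA replicate 3 (adjusted p = 0.0562). Null samples were below siRNA samples by a log2 change of -4.09 ± 0.46 (17.1-fold, adjusted p = 0.000982). Null minus wild type was -0.22 ± 0.51, with a 95% interval of -1.34 to 0.90.

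Ccl7, a second ligand of Ccr2 whose gene is the next protein-coding gene after Ccl2 on chromosome 11, had -1.61, -1.16 and -1.06 in null replicates 1 to 3, 4.04, 4.34, 5.17 and 5.69 in siRNA samples, and -0.41 and -1.59 in wild-type replicates 3 and 6. Null replicate 4 and wild-type replicate 4 lacked a value. The lowest siRNA sample was far above every null and wild-type sample. SiRNA samples were higher than wild type by 6.26 ± 0.53 (76.5-fold, limma adjusted p = 0.000376), ranked 14 by p among 20352 probes tested. Null samples were below siRNA samples by a log2 change of -5.92 ± 0.44 (60.6-fold, adjusted p = 0.000309), and null minus wild type was 0.34 ± 0.60 (95% interval -0.99 to 1.67).

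Ccl5, which attracts T cells and monocytes, had 4.69, 4.90, -0.45 and 0.29 in null samples, 7.98, 8.76, 4.89 and 6.02 in siRNA samples, and 0.50, -0.20 and 1.69 in wild-type samples. Its values split by replicate set: replicates 3 and 4 were lower than 1 and 2 by a mean log2 difference of -4.87 in null and -2.91 in siRNA samples. Within either set the siRNA samples were above the null samples, while over all 8 samples the highest null value, 4.90, was just above the lowest siRNA value, 4.89. The fitted log2 change was 4.40 ± 0.59 for siRNA minus wild type (21.2-fold, limma adjusted p = 0.00199) and -4.55 ± 0.49 for null minus siRNA (23.5-fold, adjusted p = 0.000663). Without the set term these were 6.35 (adjusted p = 0.123) and -4.55 (0.210), and neither was called. Null minus wild type was -0.15 ± 0.59 (95% interval -1.44 to 1.14) with the set term and 1.79 without it.

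Ccl3 and Ccl4, adjacent genes whose products attract monocytes and other leukocytes, did not follow this order. Ccl3 had 1.76 and 1.70 in null replicates 1 and 2, 1.59 and 1.87 in siRNA replicates 1 and 2, and 4.13, 4.32 and 0.80 in wild-type samples, with no value in replicates 3 and 4 of the null and siRNA groups. No set held Ccl3 in both a treated or null group and wild type, so only null minus siRNA could be fitted, at 0.00 ± 1.00 (95% interval -2.25 to 2.26). Moved wild-type replicates 1 and 2 had 2.21 and 2.55. With them null minus wild type and siRNA minus wild type were each -0.65 ± 1.01, and neither was called. Ccl4 had -0.40, -0.05 and -2.50 in null replicates 1, 2 and 4, -0.07, 0.83, -1.08 and -0.50 in siRNA samples, and -0.71, -1.90 and -1.20 in wild-type samples. Null replicate 3 lacked a Ccl4 value, and all 3 groups overlapped. Ccl4's fitted change was 0.26 ± 0.50 for siRNA minus wild type (95% interval -0.83 to 1.35, limma adjusted p = 0.808) and -1.06 ± 0.46 for null minus siRNA (-2.06 to -0.06, adjusted p = 0.179). For null minus wild type it was -0.79 ± 0.56 (adjusted p = 0.525).

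Cxcl10, an interferon-induced ligand of Cxcr3, a chemokine receptor of T cells, had 0.83, 1.14, 0.76 and 1.40 in null samples, 5.76, 6.31, 5.08 and 5.99 in siRNA samples, and 0.70, 0.36 and 0.05 in wild-type samples. All 11 samples had a value, and the siRNA samples lay above all others in both replicate sets. The means were 1.03 ± 0.29 in null, 5.79 ± 0.52 in siRNA (SD, n = 4 each) and 0.37 ± 0.33 in wild-type samples (n = 3). SiRNA samples were higher than wild type by 5.37 ± 0.41 (41.3-fold, limma adjusted p = 0.000153), with the smallest p of all 20352 probes. Null samples were below siRNA samples by a log2 change of -4.75 ± 0.34 (27.0-fold, adjusted p = 7.1e-05), ranked 2. The null samples were all above the wild-type samples, but by 0.62 ± 0.41 (95% interval -0.28 to 1.51, adjusted p = 0.492), which was not called.

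Cxcl1 and Cxcl2, neighbouring genes on chromosome 5 whose products draw neutrophils through Cxcr2, had too few values outside the siRNA group for the main test. Cxcl1 had -1.52 in null replicate 3 and no value in the other null samples, 2.68, 3.41, 6.74 and 6.24 in siRNA samples, and -0.48 and -2.13 in wild-type replicates 3 and 6, with none in replicate 4. Cxcl2 had -0.43 and -1.03 in null replicates 3 and 4 and none in 1 and 2, 2.67, 2.69, 3.41 and 3.37 in siRNA samples, and -1.32 in wild-type replicate 6 and none in 3 and 4. Every siRNA value of either gene was above every null and wild-type value. In a fit without a minimum number of values, Cxcl1 in siRNA samples was higher than in wild type by a log2 change of 7.79 ± 0.64. With the set term this equals the difference of siRNA replicates 3 and 4 from the 2 wild-type values; siRNA replicates 1 and 2 were lower, and the plain group means were 4.77 in siRNA and -1.31 in wild-type samples. Null minus siRNA in that fit was -4.12 ± 0.50 for Cxcl2, from 2 null values. This equals the difference of those null values from siRNA replicates 3 and 4. Both probes enter that fit mainly through the siRNA group, where they are high, so these are descriptions. No test is given for either gene, and Cxcl1 in null and Cxcl2 in wild-type samples had 1 value each. That fit called 6.34% of all probes for siRNA minus wild type and 5.53% for null minus siRNA.

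The promoters of Cxcl1, Cxcl2 and Cxcl10 are shown because these genes were high together in the siRNA samples and their start regions are in the RefSeq promoter table (GRCm38.p6, 250 bases before to 50 after the start); 6 of the 10 genes matched, and Ccl2, Ccl4, Ccl5 and Ccl7 had no entry. Capitals mark matches, on either strand, to an NF-kB motif (GGG, then any 3 bases, then TTCC) or to an interferon-stimulated response element, ISRE (GAAA, any 2 bases, GAAA). The Cxcl1 promoter is at chr5:90890995-90891294 on the plus strand, that of Cxcl2 at chr5:90903649-90903948 on the plus strand and that of Cxcl10 at chr5:92348840-92349139 on the minus strand.
Cxcl1: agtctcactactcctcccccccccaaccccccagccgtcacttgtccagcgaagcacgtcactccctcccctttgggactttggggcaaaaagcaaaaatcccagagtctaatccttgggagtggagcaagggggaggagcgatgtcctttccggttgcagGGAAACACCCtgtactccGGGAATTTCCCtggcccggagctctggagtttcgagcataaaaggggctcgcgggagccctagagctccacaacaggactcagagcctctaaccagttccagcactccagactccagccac
Cxcl2: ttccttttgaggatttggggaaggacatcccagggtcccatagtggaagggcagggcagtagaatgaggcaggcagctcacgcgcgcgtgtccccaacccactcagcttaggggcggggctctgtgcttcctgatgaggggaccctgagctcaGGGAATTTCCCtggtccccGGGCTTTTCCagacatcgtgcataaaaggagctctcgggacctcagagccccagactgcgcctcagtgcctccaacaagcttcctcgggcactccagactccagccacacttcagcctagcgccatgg
Cxcl10: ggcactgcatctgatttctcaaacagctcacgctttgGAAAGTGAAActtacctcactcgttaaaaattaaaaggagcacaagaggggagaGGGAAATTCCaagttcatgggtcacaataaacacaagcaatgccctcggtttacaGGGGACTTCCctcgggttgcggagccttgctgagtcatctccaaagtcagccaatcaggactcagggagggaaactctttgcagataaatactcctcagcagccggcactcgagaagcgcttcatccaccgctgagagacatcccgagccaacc
Cxcl1 held 3 NF-kB matches and so did Cxcl2; in either promoter 1 stretch, GGGAATTTCC and its overlap GGAATTTCCC on the other strand, gave 2 of them. Cxcl10 held 2 NF-kB matches, GGGAAATTCC at -159 to -150 and GGGGACTTCC at -104 to -95 from the start, and 1 ISRE match, GAAAGTGAAA, at -213 to -204. The promoters of Ccl3, Cxcl12 and Cx3cl1 held neither motif. Of 27025 mouse promoters of that length, 5.52% held the NF-kB motif, 3.49% the ISRE and 0.170% both. A match is a description of letters and no evidence that a factor bound there.

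Cxcl12, the ligand of Cxcr4, had -2.86, -1.12 and -0.74 in null replicates 2 to 4, -1.16, -0.68, -0.58 and -0.10 in siRNA samples, and -2.23, -3.06 and 0.63 in wild-type samples, with no value in null replicate 1. The wild-type samples spread over a wider range than the siRNA samples, and all groups overlapped. SiRNA minus wild type was 1.61 ± 0.82 (95% interval -0.19 to 3.41, limma adjusted p = 0.269) and null minus siRNA -1.23 ± 0.74 (adjusted p = 0.335). Without wild-type replicate 6, siRNA minus wild type was 2.57 and was called (adjusted p = 0.0157). The fit with the replicate number as a block, in which replicate 6 has no partner and drops out of the contrast, also gave 2.57 (adjusted p = 0.0138). Null minus wild type was 0.38 ± 0.81 (95% interval -1.38 to 2.15).

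Cx3cl1 (fractalkine), a membrane-anchored ligand of the microglial receptor Cx3cr1, was read by a pair of probes that disagreed. Probe 1305 had -0.36, -0.25, 2.14 and 2.72 in null samples, 1.63, 2.42, 3.72 and 4.34 in siRNA samples, and 1.38, 2.15 and 2.63 in wild-type samples. At this probe replicates 3 and 4 were above 1 and 2 by a mean log2 difference of 2.74 in null and 2.00 in siRNA samples, and within each set the siRNA samples were highest. SiRNA minus wild type was 2.27 ± 0.39 (4.81-fold, limma adjusted p = 0.00669) and null minus siRNA -1.97 ± 0.32 (3.91-fold, adjusted p = 0.00656). Both calls were lost with consecutive samples as a random block (adjusted p = 0.0644 and 0.0772) and without the set term (0.704 and 0.377).

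Probe 30733 of Cx3cl1 had -0.91, -0.85, 0.08 and -1.65 in null samples, -0.45, -0.23, 0.03 and -0.21 in siRNA samples, and -0.12, -1.99 and -0.03 in wild-type samples. The groups overlapped throughout at this probe, whose siRNA minus wild type change was 0.49 ± 0.55 (95% interval -0.70 to 1.69, adjusted p = 0.652) and whose null minus siRNA change was -0.62 ± 0.46 (adjusted p = 0.444). Null minus wild type was 0.30 ± 0.39 at probe 1305 and -0.12 ± 0.55 at probe 30733. Across the 11 samples the values of the 2 probes correlated at r = 0.25.

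**Figure D2:**
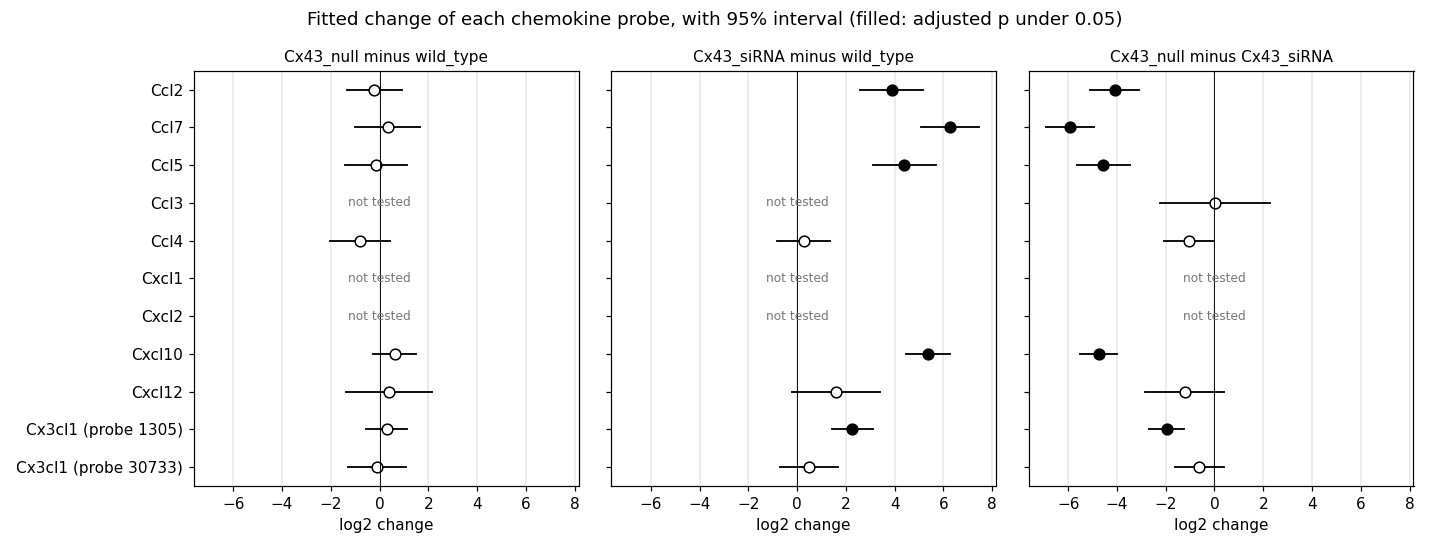
Fitted log2 change of each chemokine probe with its 95% interval in the 3 comparisons (null minus wild type, siRNA minus wild type, null minus siRNA); filled points have a limma adjusted p under 0.05. The 5 filled points of siRNA minus wild type run from 2.27 to 6.26, the 5 of null minus siRNA from -5.92 to -1.97, and no point of null minus wild type is filled.

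For siRNA minus wild type, 8 of the 11 chemokine probes were tested, and 5 were called, all higher. Of all 20352 probes tested 7.38% were called, 5.42% higher and 1.96% lower, and the median change was 3.07 for the 8 chemokine probes and 0.13 for all probes. With consecutive samples as a random block 4 chemokine probes stayed called, against 1% of all probes called in that fit: Cxcl10 (limma adjusted p = 0.00231), Ccl7 (0.00278), Ccl5 (0.0187) and Ccl2 (0.0333). For null minus siRNA, 9 were tested and 5 were called, all lower, where 5.87% of 20375 probes were called (3.61% higher and 2.27% lower); the medians were -1.97 and 0.11. Of the 9, 4 stayed called with the random block, which called 0.52% of all probes. For null minus wild type, limma called 0 of 8, where 0.589% of 20369 probes were called. Of the 8, 0 had an unadjusted p under 0.05, against 3471 of all 20369 probes. The random block also called 0 of the 8 and 0.00491% of all probes. The median of the 8 was 0.09, against 0.27 for all probes. An unadjusted p under 0.05 was found for 4755 of 20352 probes in siRNA minus wild type and 5043 of 20375 in null minus siRNA. The comparisons share samples, so the siRNA values enter both sets of 5 calls.

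Wild-type replicates 1 and 2, moved to matching grid rows, gave values for 8 of the probes in the set numbered 1 and 2. Ccl2 was then 3.80 and 3.87, Ccl5 4.06 and 4.57, Ccl7 -1.10 and -0.52, and Cxcl10 -1.29 and -0.41 in these samples. The moved wild-type Ccl5 values differed between sets in the same direction as those of null and siRNA samples. As deposited, Ccl5 was -1.34 and -0.90 in wild-type replicates 1 and 2. The move was chosen for likeness to the used samples, most of them null or siRNA, so this likeness is partly built in. Within replicates 1 and 2, siRNA minus moved wild type was 6.89 for Cxcl10, 5.00 for Ccl7, 4.05 for Ccl5, 2.77 for Ccl2 and 2.37 for Cx3cl1 at probe 1305. Within replicates 3 and above these differences of means were 5.17, 6.43, 4.79, 3.96 and 1.97. With the moved samples in the model the same 5 probes were called (limma adjusted p from 1.3e-05 for Cxcl10 to 0.00273 for Ccl2), where 4.48% of all probes were.

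**Figure D3:**
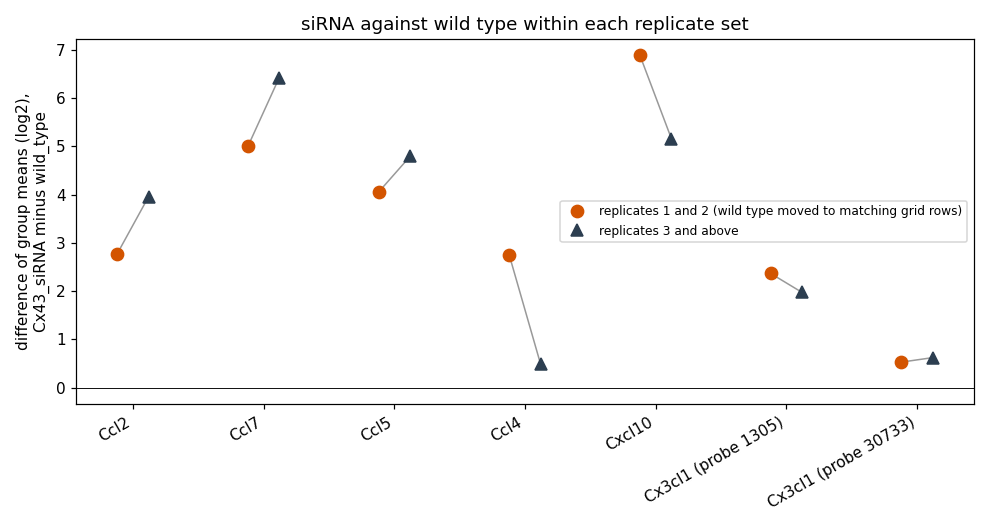
Difference of group means (log2, siRNA minus wild type) within replicates 1 and 2 (circles, wild type moved to matching grid rows) and within replicates 3 and above (triangles), for the 7 chemokine probes with values in both sets. Ccl2, Ccl7, Ccl5, Cxcl10 and probe 1305 of Cx3cl1 lie above 1.9 in both sets. Ccl4 has 2.75 in the first, where only wild-type replicate 2 has a value (-2.36), and 0.48 in the second.

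Among other chemokine ligands, 12 of 29 genes were tested. For siRNA minus wild type 2 rose and 1 fell, with a median of 0.45. Of all probes 5.42% were called higher and 1.96% lower. Cxcl11, like Cxcl10 a ligand of Cxcr3, had -2.07, -1.93, -1.65 and -2.09 in null samples, 2.59, 2.30, 4.18 and 4.63 in siRNA samples, and -0.84, -1.78 and -2.01 in wild-type samples. No siRNA value overlapped another group, and the change was 5.44 ± 0.51 against wild type (limma adjusted p = 0.000326) and -5.36 ± 0.42 for null minus siRNA (0.000141). Ccl20, the ligand of Ccr6, was higher in siRNA samples by 2.56 ± 0.63 (adjusted p = 0.0421), and Pf4, a chemokine of platelets and macrophages, was lower, at -2.91 ± 0.73 (0.0342). Both calls were lost with the random block (0.176 and 0.120). Cxcl9, chosen after its values were seen, is the remaining ligand of Cxcr3. It had -1.32, -1.41, 0.50 and 0.92 in siRNA samples and no value in any of the 7 null and wild-type samples. For null minus siRNA, Pf4 was higher by 2.34 ± 0.61 (adjusted p = 0.0443), a call lost with the random block (0.204). Of all probes 3.61% were called higher and 2.27% lower in that comparison. Limma called 0 of the 12 for null minus wild type, where 0.589% of all probes were called. Of the 12, 1 had an unadjusted p under 0.05, against 3471 of all 20369 probes. The random block called 0 of the 12 and 0.00491% of all probes.

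Of 24 chemokine receptors 21 had a probe, 6 had no value in any used sample (Ccr2, Ccr4, Ccr8, Ccr9, Cxcr3 and Xcr1) and 9 were tested. Limma called 0 for siRNA minus wild type, where 1 had an unadjusted p under 0.05 and the median was -0.57, and 0 for null minus wild type, where 2 did and the median was -0.33. The random block also called 0 in both. Of all probes limma called 7.38% for siRNA minus wild type and 0.589% for null minus wild type, and the random block 1% and 0.00491%. An unadjusted p under 0.05 was found for 4755 of 20352 and 3471 of 20369 probes. Cxcr4, the receptor of Cxcl12, had 0.46, 0.11, 1.70 and 1.98 in null samples, -2.60, -1.07, -0.20 and -0.02 in siRNA samples, and -0.09, 0.30 and -0.44 in wild-type samples. All null values lay above all siRNA values, by a fitted 2.03 ± 0.36 (adjusted p = 0.00941), a call lost with the random block (0.127). It was the 1 receptor call for null minus siRNA, where 3.61% of all probes were called higher and 2.27% lower.

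**Figure D4:**
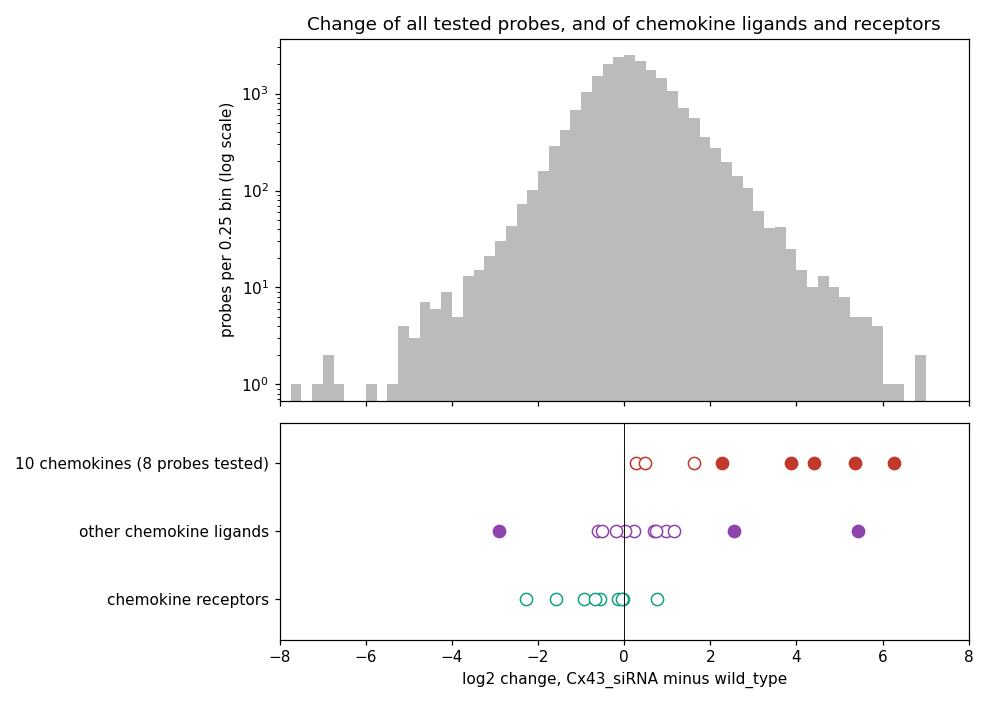
Top: number of all tested probes per 0.25 bin of log2 change, siRNA minus wild type, on a log axis. Bottom, on the same change axis: the 8 chemokine probes tested, 12 other chemokine ligands and 9 chemokine receptors; filled points have an adjusted p under 0.05. All 8 chemokine probes lie to the right of 0, and no receptor is filled.

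Genes that induce or sense upstream of chemokines (cytokines, pattern receptors, NF-kB and interferon regulatory factors) had 16 of 24 tested. For siRNA minus wild type 5 rose and 0 fell, with a median of 1.15, where 5.42% of all probes were called higher and 1.96% lower. Tlr3, an endosomal receptor for double-stranded RNA, rose by 3.87 ± 0.45 (limma adjusted p = 0.00096), the cytokine gene Il6 by 4.23 ± 0.49 (0.00165) and the interferon regulatory factor gene Irf7 by 5.56 ± 0.87 (0.00424). The others, named after their values were seen, were Ddx58, a sensor of viral RNA (2.17 ± 0.47), and Relb, an NF-kB subunit (2.05 ± 0.48). Tlr3 had 5.20 and 4.64 in siRNA replicates 3 and 4, against 1.57, 0.51 and 0.48 in wild-type samples. Its siRNA replicates 1 and 2, at 0.12 and 0.28, lay below every wild-type value. At Ddx58 and Relb siRNA replicates 1 and 2 lay inside the wild-type range, and replicates 3 and 4 above it. All siRNA values of Il6 and Irf7 were above all wild-type values. For null minus siRNA 5 fell and 0 rose, with a median of -1.32, Tlr3 (-2.92 ± 0.37, adjusted p = 0.0015), Irf7 (-5.19 ± 0.73, 0.0028) and Il6 (-4.19 ± 0.53, 0.00298), and, named after their values were seen, the receptor gene Tlr2 (-1.98 ± 0.35) and the RNA sensor gene Ifih1 (-1.37 ± 0.31). Of all probes null minus siRNA had 2.27% called lower and 3.61% higher. With the random block Tlr3, Irf7 and Il6 stayed called in both comparisons. That block called 1% of all probes for siRNA minus wild type and 0.52% for null minus siRNA. For null minus wild type limma called 0 of the 16 and 0.589% of all probes. Of the 16, 3 had an unadjusted p under 0.05, against 3471 of all 20369 probes. The random block called 0 of the 16 and 0.00491% of all probes. The median was 0.13, against 0.27 for all probes.

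Some markers of other cells were called in the comparisons with the siRNA group. Of the markers of microglia and myeloid cells, which can make several of these chemokines, 16 of 20 were tested. For siRNA minus wild type 7 fell and 0 rose (median -1.76), with Laptm5 at -3.38 ± 0.37 (limma adjusted p = 0.000635), C1qa at -2.43 ± 0.38 (0.00431) and Coro1a at -2.95 ± 0.48 (0.00529). Of all probes 1.96% were called lower and 5.42% higher in that comparison. The random block left 2 of the 7 and called 1% of all probes. The mean log2 value over the 14 of these markers measured in all samples was 2.23 to 4.68 in null, 1.82 to 2.35 in siRNA and 3.32 to 3.89 in wild-type samples, and no marker with a probe was without a value. For null minus siRNA 6 rose and 0 fell (median 1.43), where 3.61% of all probes were called higher and 2.27% lower. The random block left 1 of the 6 and called 0.52% of all probes. For null minus wild type limma called 0 of these markers, where 0.589% of all probes were called. Of these markers 2 had an unadjusted p under 0.05, against 3471 of all 20369 probes. The random block called 0 of these markers and 0.00491% of all probes. The median was -0.58, against 0.27 for all probes. The 7 called markers were lower in siRNA samples than in wild type, where the 5 called chemokine probes were higher, and the part of microglia in the chemokine values was not tested.

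Of 16 astrocyte markers 13 were tested, and the mean of the 9 complete ones was 3.10 to 4.20 in null, 2.18 to 3.70 in siRNA and 3.94 to 4.53 in wild-type samples, while the Gfap probe had no value in any used sample and the Slc1a3 probe had none in wild type. For siRNA minus wild type 1 rose (Aldh1l1, 1.82 ± 0.47, limma adjusted p = 0.0375) and 1 fell (Aldoc, -2.34 ± 0.57, 0.0304), and neither was called with the random block (0.220 and 0.164). The 1 call for null minus wild type, where 0.589% of all probes were called, was Gja1, which the random block did not call (0.298). For null minus siRNA Aldoc (3.30 ± 0.48, adjusted p = 0.0034) and Sox9 (1.31 ± 0.32, 0.034) were higher and Gja1 was lower, of which only Aldoc was called with the random block (0.0335; Sox9 0.258). Of other cells' markers, siRNA samples were lower than wild type for 1 of 5 endothelial genes (Flt1) and 2 of 9 fibroblast and mural genes (Col3a1 and Dcn). They were also lower for 2 of 6 neuronal genes (Syn1 and Tubb3). None was higher, and none of these calls was kept with the random block. Of all probes limma called 1.96% lower and 5.42% higher in that comparison, and the random block called 1%. For null minus siRNA 1 endothelial gene (Flt1) and 1 neuronal gene (Gad1) were higher, where 3.61% of all probes were. Neither was called with the random block. Limma called 0 of the 9 fibroblast and mural genes in that comparison. Of the 9, 2 had an unadjusted p under 0.05, against 5043 of all 20375 probes. For null minus wild type limma called 0 in these 3 lists and 0.589% of all probes. An unadjusted p under 0.05 was found for 0 of 5, 4 of 9 and 3 of 6 genes, against 3471 of all 20369 probes. The random block called 0 in the 3 lists and 0.00491% of all probes. The part of these cells in the chemokine values was not tested.

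Across samples, as a description only, Ccl7 correlated with Cxcl2 at r = 0.99 (6 samples), with Cxcl10 at 0.97 (9 samples) and with Ccl2 at 0.93 (8 samples). Ccl4 and Ccl5 correlated at 0.84 (10 samples), and Ccl5 and probe 1305 of Cx3cl1 at 0.00 (11 samples). These points share the 3 groups and the replicate sets. Over 9305 probes complete in the 11 samples, the named genes most like Cxcl10 were Isg20 (r = 0.969), Nr4a2 (0.961) and Arrdc4 (0.956), and those most like Ccl5 were Msto1 and Shisa5 (both 0.955) and Igtp (0.953). Probe 1305 of Cx3cl1 was most like Arf1 (0.973), Nop58 (0.967) and Tubd1 (0.965). Probe 30733 was most like Dgat1 (0.953), Bin3 (0.940) and Nkx2-1 (0.931), so its list shared no gene with that of probe 1305.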

How the data were processed

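RNA of 14 samples was labelled, per the labels' protocols, from 20 ug of total RNA by direct incorporation of Cy3 (odd replicates) or Cy5 (even replicates) and read on spotted oligonucleotide arrays. The deposited values are log2 values centred on a median of 0 per sample; scanner, background correction, filter and normalization are not stated in any source used here. No intensity or background value was used. The number of arrays limits the precision. Probes were named from the platform annotation, and gene order and promoters from RefSeq (GRCm38.p6).

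The model had group, dye and replicate set (1 and 2 against 3 and above) over 11 samples. Each probe with at least 2 values in each group was fitted on the samples that had a value, in R 4.3.3, and variances were shrunk with limma 3.58.1. P-values are two-sided, adjusted by Benjamini-Hochberg over all tested probes, and called under 0.05. Where a contrast could not be estimated from the values present, it is said to be not tested. The fit was tested on simulated data whose noise was independent among samples. That test therefore did not cover likeness between consecutive samples. The random block took consecutive samples of a group as 1 block each, with a correlation of 0.467 (duplicateCorrelation).

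Replicate numbers are shared by null and siRNA samples. Deviations from the group means correlated at 0.621, 0.638, 0.648 and 0.565 between same-numbered samples (14243 probes). Null replicate 1 correlated with siRNA replicate 2 nearly as well, at 0.598, and null replicate 2 with siRNA replicate 1 at 0.589. Same-numbered samples also share the replicate set and the dye, and correlations across sets were negative. The values therefore cannot show that the numbers are pairs, and the replicate number was a block only in an alternative fit.

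For wild-type replicates 1 and 2, each of 28 columns of the 48 print blocks was moved to the row at which it correlated best with the used samples, and columns under r = 0.5 were left out. The genes, the lists and the settings were chosen with earlier results of these data known. Named are all 10 chemokines and Gja1, up to 3 called genes per list and comparison by adjusted p, and the 3 genes most like each complete chemokine probe; a list gene counts once, at its probe with the highest mean. Alternatives covered samples, covariates, blocks, normalization, filters, array weights and leaving out each sample.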

Additional observations from a re-analysis of the deposited data

How the results depend on the processing

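Cxcl10 and Ccl7 kept the calls of siRNA minus wild type and null minus siRNA under every alternative that tested them (24 and 20), Cxcl10 at 4.91 or more and Ccl7 at 4.41 or more against wild type, and Ccl2 kept that of null minus siRNA under 22. Lost calls of Ccl2, Ccl5 and Cx3cl1 are given above, besides null minus siRNA for Ccl5 in all 14 samples as deposited (adjusted p = 0.0975) and for probe 1305 in replicates 3 and above only (0.0608) and with the random block after realignment (0.189; siRNA minus wild type 0.0593). Called chemokine probes for siRNA minus wild type, 5 of 8, numbered 3 of 5 tested with replicates 3 and above only (9.23% of all probes), 3 of 9 without the set term (0.323%) and 3 of 4 with complete probes only (8.70%). The 5 of 9 for null minus siRNA became 2 of 5 (9.88%), 3 of 9 (0.367%) and 3 of 4 (7.95%) under these settings; the first and last test fewer probes. With any 1 sample left out the called chemokine probes numbered 4 to 5 in either comparison. Of all probes 1.26% to 8.26% were then called for siRNA minus wild type and 1.75% to 9.55% for null minus siRNA. Without wild-type replicate 3 they were 4 of 7 tested and 4 of 8. Without siRNA replicate 3, siRNA minus wild type had 4 of 8, and without wild-type replicate 6, null minus siRNA had 4 of 8.

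Over all probes the calls moved more. Null against wild type, 120 calls, gave 1 in all 14 samples, 877 with replicates 3 and above, 0 after realignment and 0 without the set term, 390 with the replicate block, 1 with the random block, 308 with quantile and 29 with scale normalization, 73 with complete probes, 22 with array weights, 0 with the random block after realignment (added after seeing the data), and 1 to 223 with 1 sample left out. SiRNA against wild type, 1502 calls, gave 778 in all 14 samples, 961 after realignment, 66 without the set term, 204 with the random block, 571 with scale normalization, 77 with the random block after realignment, and 225 to 1590 with 1 sample left out. Null against siRNA, 1197 calls, gave 160 in all 14 samples, 1893 with replicates 3 and above, 674 after realignment, 75 without the set term, 2382 with the replicate block, 106 with the random block, 778 with scale normalization, 2771 with array weights, 47 with the random block after realignment, and 305 to 1840 with 1 sample left out. The causes were not tested. The replicate block changed no chemokine call other than that of Cxcl12.

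Values that changed sign were all uncalled. For null minus wild type without the set term these were Ccl2 0.022, Ccl4 0.29, Ccl5 1.79, Ccl7 -0.28, Cxcl12 -0.021 and probe 1305 -0.89. With the replicate block they were Ccl2 0.22, Ccl5 0.27, Ccl7 -0.43 and probe 30733 0.31. In all 14 samples they were Ccl4 0.22, Ccl5 2.31 and Ccl7 -1.74, after realignment Ccl4 0.22 and Ccl7 -0.27, and with the random block after realignment Ccl4 0.20, Ccl7 -0.17 and Cxcl12 -0.019. Array weights gave Ccl5 0.61 and probe 30733 0.44, quantile normalization Ccl7 -0.17 and scale normalization Ccl7 -0.27. With 1 sample left out, null minus wild type ran from -0.54 to 0.20 for Ccl2, -0.68 to 0.27 for Ccl5, -0.49 to 1.44 for Cxcl12 and -0.67 to 0.36 for probe 30733. SiRNA minus wild type then ran from -0.11 to 0.72 for Ccl4, -0.054 to 0.92 for probe 30733 and -1.10 to 0.25 for Gja1. Ccl3, null minus siRNA, was -0.0032 with quantile normalization. The Gja1 call of null minus wild type was lost in 14 of 24 alternatives and that of null minus siRNA in 4.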
